A study of Mus musculus with 6 samples.

Results

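The phagocyte NADPH oxidase is an enzyme complex that passes electrons from NADPH to oxygen and so makes superoxide. Its membrane core pairs the catalytic subunit encoded by Cybb with the small partner encoded by Cyba. On activation the organiser Ncf1, its partner Ncf4 and the GTPase Rac2 move from the cytosol to that core. The complex is known best from neutrophils, macrophages and B cells, and its loss in humans causes chronic granulomatous disease. Here 5 of its subunit genes, Cybb, Cyba, Ncf1, Ncf4 and Rac2, were followed in regulatory T cells (Tregs), out of 19494 genes measured. Each of the 5 had 1 row on the array, and all 5 were measured. The genes were chosen by symbol, after Cybb had stood out in the same comparison of these arrays, so their differences between the fractions are given as a description with no test.

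The RNA came from Tregs of the lamina propria of tumorous colon in mice of the genotype Foxp3-RFP x GPR15-GFP, in which red fluorescence reports Foxp3 and green fluorescence reports the homing receptor GPR15. All animals had colorectal cancer induced by AOM/DSS, that is by the carcinogen azoxymethane and by dextran sulfate sodium, an agent that injures the gut lining. RFP+ cells stained for CD4 were sorted into 3 samples labelled GPR15-GFP+ and 3 labelled GPR15-GFP-, and each fraction has samples numbered 1, 5 and 6 in their titles. The labels give no age or sex and do not say whether a number is 1 animal or a pool, so p-values below measure only the spread between these samples. Every group carried the reporters and the tumours, and no sample from untreated colon was part of the comparison. The values are log2 RMA values, so that equal differences stand for equal fold changes.

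Array medians ran from 6.49 to 6.64. The SD of the log2 values was 1.63 on both arrays numbered 1. It was 1.74 on the GPR15-GFP- arrays numbered 5 and 6, and 1.87 and 1.82 on the GPR15-GFP+ arrays of those numbers. The spread of values thus differed between numbers and, in numbers 5 and 6, between fractions. As a check of the labelled cell type, the 11 measured T cell markers lay between 8.56 and 12.05 on all arrays. Of the Treg genes, Ctla4, a checkpoint receptor, lay between 10.45 and 11.73, but Il2ra, which encodes the high-affinity interleukin-2 receptor chain, lay only between 4.64 and 5.42. Foxp3 was not analysed here. Gpr15 itself went against the labels, at 8.12 ± 0.23 (SD, n = 3) in samples labelled GPR15-GFP+ and 8.78 ± 0.31 (SD, n = 3) in samples labelled GPR15-GFP-. It is not known here whether the reporter allele retains the sequence its probes read, and every direction below rests on the labels alone. The Y-linked gene Uty, named after its values were seen, lay at 4.60 and 4.27 in the samples numbered 6 and between 7.48 and 8.97 in the others. The labels give no sex, so a difference between number 6 and the others cannot be told apart from a possible one of sex.

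The upstream sequence is shown for the core pair and the organiser, because Cybb parted from Cyba and Ncf1 in the values below. RefSeq's promoter table for GRCm38.p6 held 3 of the 5 genes, and Ncf4 and Rac2 had no entry. Each line gives the 100 bases before the transcription start, 5′ to 3′ on the minus strand, at chrX:9469325-9469424 for Cybb, chr8:122432941-122433040 for Cyba and chr5:134229626-134229725 for Ncf1. Capitals mark CCAAT or GGGCGG on either strand.
Cybb: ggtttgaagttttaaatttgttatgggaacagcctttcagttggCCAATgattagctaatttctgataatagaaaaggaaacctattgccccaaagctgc
Cyba: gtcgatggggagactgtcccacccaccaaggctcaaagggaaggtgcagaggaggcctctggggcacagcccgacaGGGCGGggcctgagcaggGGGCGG
Ncf1: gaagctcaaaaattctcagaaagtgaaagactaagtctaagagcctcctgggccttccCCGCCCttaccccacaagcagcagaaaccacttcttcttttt

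The 3 stretches hold different letters. Cybb had a CCAAT box from base -56 to -52 and no GGGCGG. Cyba had GGGCGG, the core of the GC box, at -24 to -19 and again at -6 to -1, and no CCAAT. Ncf1 had GGGCGG once, on the other strand, at -42 to -37. GAGGAA, the core bound by the myeloid factor PU.1, was found in Cybb alone of the 3, on the other strand at bases 10 to 15 after the start. The search covered both strands of a window from 250 bases before to 50 after each start. Of 32851 such windows, 37.4% held CCAAT, 35.7% GGGCGG and 28.3% GAGGAA, so each match is common and is given as a description only.

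Among the 5 genes, Cybb alone had a difference of over 1 log2 unit between the fractions, and the other 4 lay between -0.26 and 0.27. Cybb encodes the haem-bearing catalytic chain. Its values were 8.60, 7.79 and 7.88 in the samples labelled GPR15-GFP+ numbered 1, 5 and 6, and 7.02, 5.93 and 7.80 in the samples labelled GPR15-GFP-. The GPR15-GFP+ samples, at 7.79 to 8.60, thus lay closer together than the GPR15-GFP- samples. Of the latter, number 6 lay within the range of the other fraction. The fractions overlapped, by 0.01. The means were 8.09 ± 0.45 (SD, n = 3) and 6.92 ± 0.94 (SD, n = 3), a difference of 1.17 ± 0.60 (SE) or 2.25-fold. Each SE of a difference given here comes from the SDs of the 3 samples in either fraction, not from limma's model. It includes the spread between title numbers, so a difference that is steady within the numbers can carry a large SE. Within the numbers, Cybb was 2.99-fold higher in number 1, 3.62-fold in number 5 and 1.06-fold in number 6. Number 6 was also the number with low Uty, and Cybb lies on the X chromosome. A part of sex in this was not tested. The mean difference therefore came from numbers 1 and 5: without both arrays numbered 6 it was 1.72, and without the GPR15-GFP- sample numbered 5, the lowest of all, it was 0.68. Of all 19494 genes, 46, Cybb included, were higher by at least this much and 10 were lower by at least this much. The array measures the RNA of a sorted pool, so more cells with Cybb and more Cybb RNA per cell cannot be told apart.

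**Figure D1:**
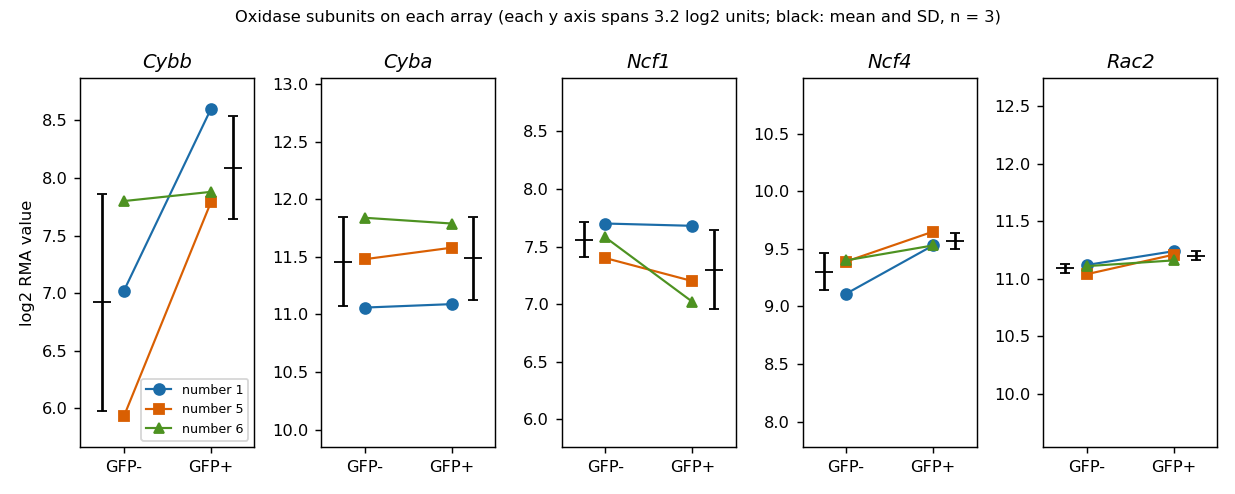
Log2 RMA values of the 5 subunit genes on each array, with lines joining samples of the same title number and black bars for the mean and SD of 3 samples; all panels span the same number of log2 units. Cybb goes from 7.02 to 8.60 in number 1 and from 5.93 to 7.79 in number 5 but hardly moves in number 6. In the other panels the largest move is that of Ncf1 in number 6, from 7.58 to 7.02.

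Cyba, whose protein stabilises the Cybb chain in the membrane and also serves other oxidases, did not share this pattern. It lay at 11.09, 11.58 and 11.79 in the samples labelled GPR15-GFP+ numbered 1, 5 and 6, and at 11.06, 11.48 and 11.84 in the samples labelled GPR15-GFP-. The fractions overlapped almost wholly, and the samples were ordered by their number, with number 1 lowest and number 6 highest in both fractions. The difference was 0.03 ± 0.30 (SE), with 0.03, 0.10 and -0.05 in the 3 numbers. Its sign turned with quantile normalization (-0.01) and with the intensity trend removed (-0.03).

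Ncf1 encodes the organiser that bridges the cytosolic subunits to Cyba. Its values were 7.68, 7.20 and 7.02 in the samples labelled GPR15-GFP+ and 7.70, 7.40 and 7.58 in the samples labelled GPR15-GFP-, in the order 1, 5 and 6. It was the 1 subunit gene whose difference lay below 0, at -0.26 ± 0.22 (SE) or 0.835-fold, and it lay below 0 in each number, at -0.02, -0.20 and -0.56. Number 6, where Cybb hardly differed, had the largest Ncf1 difference. The fractions overlapped.

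Ncf4 encodes the subunit that binds phosphoinositides on the phagosome. It lay at 9.53, 9.65 and 9.53 in the samples labelled GPR15-GFP+ and at 9.11, 9.39 and 9.40 in the samples labelled GPR15-GFP-. The fractions did not overlap, with a gap of 0.13 between them. The difference was 0.27 ± 0.10 (SE) or 1.21-fold, above 0 in each number at 0.42, 0.26 and 0.13. It was 0.15 after quantile normalization and 0.18 with the intensity trend removed.

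Rac2, the GTPase of blood cells that switches the complex on, was the steadiest of the 5, with a range of 0.20 over all 6 arrays. It lay at 11.24, 11.21 and 11.16 in the samples labelled GPR15-GFP+ and at 11.12, 11.04 and 11.11 in the samples labelled GPR15-GFP-. The fractions did not overlap, but the gap was 0.04. The difference was 0.11 ± 0.04 (SE) or 1.08-fold, with 0.12, 0.17 and 0.04 in the 3 numbers. It was 0.04 after quantile normalization and 0.04 with the intensity trend removed.

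Read against the whole array, 0 of 19494 genes, or 0%, passed limma's test between the fractions after Benjamini-Hochberg adjustment, with 1214 at an unadjusted p under 0.05. That number was 2411 with the replicate block, 4351 without the GPR15-GFP+ sample numbered 1, and 668 to 824 without any other single array. With estimated array weights limma called 2174, under weights from 0.191 for the GPR15-GFP+ sample numbered 1 to 6.56 for the one numbered 6. Of the 5 subunit genes, 2 (Ncf4 and Rac2) lay higher without overlap, as did 4.12% of all genes, and 0 lay lower without overlap, against 9.17% of all genes. These shares stand for 803 and 1788 genes, and for 1238 and 1230 once each array was centred on its median. After quantile normalization they were 988 and 1288, and with the intensity trend removed 980 and 1329. Cybb, Ncf4 and Rac2 lay higher within all 3 numbers, as did 13.4% of genes, and Ncf1 lay lower within all 3, as did 23.6%. The median difference was 0.11 over the 5 subunit genes and -0.06 over all genes. Nothing is read from these counts, since this comparison had a part in choosing the genes.

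**Figure D2:**
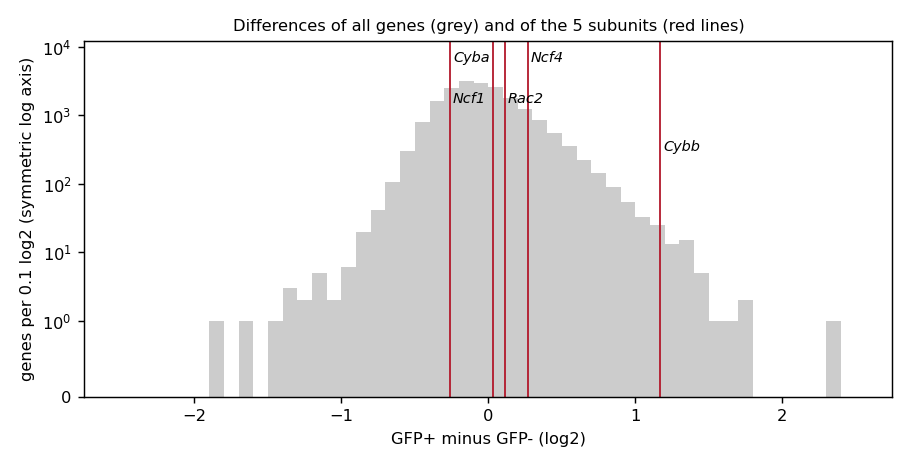
Number of genes per 0.1 log2 of difference (labelled GPR15-GFP+ minus GPR15-GFP-) on a symmetric log axis, over 19494 genes, with red lines at the 5 subunit genes. Cybb at 1.17 lies in the right tail, and the other 4 lie in the bulk between -0.26 and 0.27.

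Whether the partners followed Cybb was also described across the 6 arrays, which share title numbers and so are not independent. Pearson's r with Cybb was 0.89 for Rac2, 0.50 for Ncf4, 0.02 for Cyba and 0.02 for Ncf1, and Spearman's rho was 0.71, 0.60, 0.26 and -0.09. Rac2 was thus the partner nearest to Cybb in shape, though over a range of 0.20 against 2.67 for Cybb. An r at least as high was reached by 0.390% of all other genes for Rac2 and by 44.3% for Cyba. This plain r includes the difference between the fractions, which had a part in choosing the genes. Those shares were 4.72% and 57.3% once each fraction's mean was removed. With each fraction's mean removed, r was 0.78 for Rac2, 0.62 for Ncf1, -0.02 for Cyba and -0.14 for Ncf4, so that the value for Ncf4 was lower and that for Ncf1 higher than over the plain values. Without the pair of arrays where Cybb lay farthest from its median (8.60 and 5.93), r was 0.96 for Cyba, 0.89 for Ncf4, 0.44 for Rac2 and -0.73 for Ncf1. All 4 values thus rest on those 2 arrays.

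The 5 named genes with the highest Pearson's r with Cybb over the 6 arrays were Tnfrsf23 (0.996), Kmt5c (0.989), Cln3 (0.986), Atxn7l1 (0.986) and Nsdhl (0.977). Of all other genes, 57 had an r of 0.9 or more. Tnfrsf23, a decoy receptor of the TNF family, ran from 5.44 to 6.11. Kmt5c, a histone methyltransferase, was 1.88-fold, 2.07-fold and 1.15-fold higher in numbers 1, 5 and 6. Cln3, a lysosomal membrane protein, was 1.71-fold, 2.20-fold and 1.02-fold higher. Nsdhl, an enzyme of cholesterol synthesis, was 1.53-fold and 2.10-fold higher in numbers 1 and 5 and 0.918-fold in number 6. All had their lowest value, as Cybb did, in the GPR15-GFP- sample numbered 5.

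A comparison that the choice of genes did not use was the one between title numbers, tested with limma's F test with the fraction as a covariate. It called 354 of 19494 genes, or 1.82%, after adjustment over all genes, and 0 of the 5 subunit genes. Cyba came nearest, with means of 11.08, 11.53 and 11.81 in numbers 1, 5 and 6 (limma adjusted p = 0.150). Cybb had means of 7.81, 6.86 and 7.84 (limma adjusted p = 0.290), and without the GPR15-GFP+ sample numbered 6 it was called (limma adjusted p = 0.0321, with 0.0321 to 0.973 over 17 alternative fits). The limma adjusted p was 0.424 for Ncf1, 0.772 for Ncf4 and 0.976 for Rac2. Uty, low in number 6, was called (limma adjusted p = 0.00923). This test cannot tell a difference of number 6 from a possible one of sex. The count of all genes depended on the fit: it was 2 with no fraction term, 1 without both arrays numbered 1, and 96 to 1988 with 1 array left out.

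Other genes of oxidase biology showed no shared direction. Of 11 measured, 6 lay above 0 and 5 below, with a median of 0.03. Of these, 0 passed limma's test between the fractions, as did 0 of all 19494 genes. Cybc1, the chaperone that the Cybb and Cyba pair needs to mature, lay at 0.07, with 0.943 as its adjusted p. Rac1, the GTPase that can stand in for Rac2, lay at -0.04, and Rap1a, a GTPase found with the membrane core, at 0.40 ± 0.32 (SE). Hvcn1, the proton channel that offsets the charge the oxidase moves, was the 1 gene of the list without overlap, at 6.13 to 6.44 against 5.65 to 6.02, a difference of 0.40 ± 0.14 (SE; limma adjusted p = 0.773). Of all genes, 4.12% lay higher without overlap and 9.17% lower, so nothing is read from this count. Among genes of the epithelial oxidases, the activator Noxa1 lay at 0.42 and the organiser Noxo1 at -0.33. The catalytic chains Nox1 (0.03), Nox3 (-0.37), Nox4 (-0.21) and Duox1 (-0.08) had no value above 5.63 on any array, which lies below every array's median. The maturation factor Duoxa2 lay at 0.16. Noxa1 had nearly equal differences in the 3 numbers, while Nox3 and Nox4 changed sign among them.

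**Figure D3:**
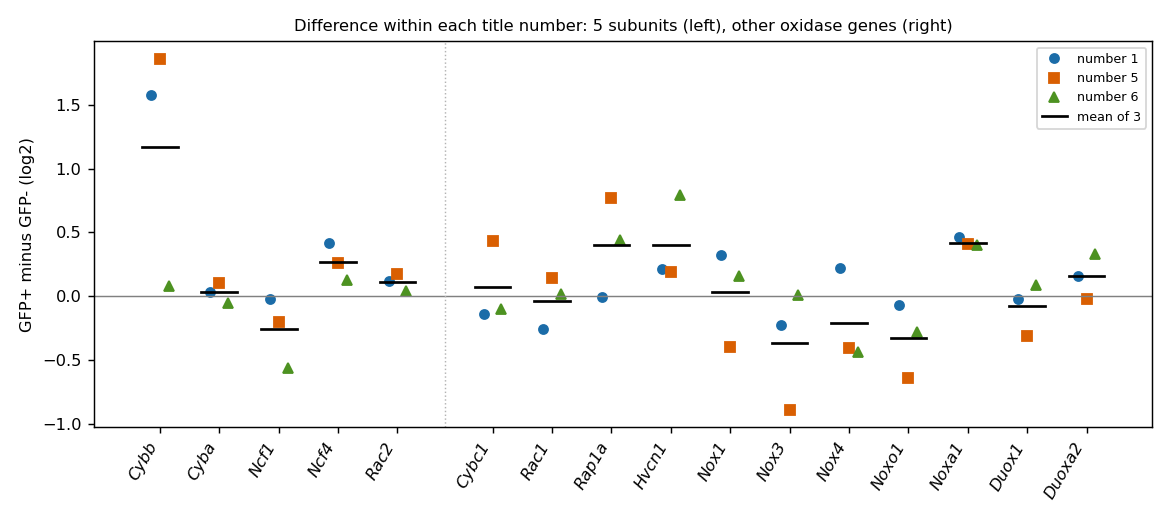
Difference between fractions (log2, labelled GPR15-GFP+ minus GPR15-GFP-) within title numbers 1, 5 and 6 for the 5 subunit genes, left of the dotted line, and 11 other oxidase genes, right of it; black bars are the mean of the 3. Cybb in numbers 1 and 5, at 1.58 and 1.86, lies above every other point, and its number 6 lies at 0.08.

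Genes of the signalling around oxidase assembly, among them Rac exchange factors and kinases that phosphorylate Ncf1, had 12 of 15 members above 0. Their median was 0.17, and 40.8% of all genes lay above 0. After quantile normalization, and also with the intensity trend removed, 9 of 15 lay above 0, with medians of 0.16 and 0.21. Of all 19494 genes 0 passed limma's test between the fractions, and so did 0 of these 15. The largest differences were those of the kinase Prkca, at 1.09 ± 0.71 (SE; limma adjusted p = 0.773), and the Rac exchange factor Vav1, at 0.72 ± 0.78 (SE; limma adjusted p = 0.813). Within numbers 1, 5 and 6 the differences were 1.25, 1.24 and 0.79 for Prkca and 0.51, 0.80 and 0.85 for Vav1. The kinase Prkcb lay at 0.32 and the Rac exchange factor Tiam1 at 0.32. Both Vav1 and Prkca had their lowest values in the samples numbered 1, as did Dock2, a further Rac activator. These 3 of 15 passed the test between title numbers, as did 1.82% of all genes (limma adjusted p = 0.0244 for Vav1, 0.0277 for Dock2 and 0.0304 for Prkca). Dock2, for instance, had means of 8.32, 10.44 and 10.33 in numbers 1, 5 and 6. All 3 calls were lost without the GPR15-GFP+ sample numbered 1, with limma adjusted p from 0.0573 to 0.0657, and that of Prkca also without the one numbered 5, at 0.0564. Over 17 alternative fits the call held in 13 for Vav1 (limma adjusted p 0.00786 to 0.919), in 13 for Dock2 (0.00348 to 0.943) and in 10 for Prkca (0.0113 to 0.934).

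Transcription factors known to act on Cybb had small differences. Of 8 measured, 5 lay above 0 and 3 below, with a median of 0.00. Of these, 0 passed limma's test between the fractions, as did 0 of all 19494 genes. Spi1, which encodes PU.1 and was named after its value was seen, differed by 0.00 ± 0.42 (SE) and stayed between 5.37 and 6.68. Irf8, its partner factor, lay at 0.23, Irf2 at 0.10, Cebpa at -0.17 and Cebpb at -0.32. Cebpb was the 1 factor without overlap, at 7.27 to 7.52 in the samples labelled GPR15-GFP+ and 7.60 to 7.77 in the others. Such lower values without overlap were found for 9.17% of all genes.

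Genes that dispose of superoxide and peroxide were split, with 10 of 19 above 0 and a median of 0.02. Of these, 0 passed limma's test between the fractions, as did 0 of all 19494 genes. The median turned to -0.03 after quantile normalization and -0.04 with the trend removed. Sod3, the secreted superoxide dismutase, lay lower without overlap, as did 9.17% of all genes. Its difference was -0.45 ± 0.13 (SE; limma adjusted p = 0.773), at 4.53 to 4.90 against 5.03 to 5.28. Keap1, the sensor that restrains the antioxidant factor encoded by Nfe2l2, lay at 0.63 ± 0.37 (SE), and Gclc, which makes a glutathione precursor, at 0.32. Nfe2l2 itself, named after its value was seen, lay at -0.07. The cytosolic and mitochondrial dismutases Sod1 and Sod2, named in the same way, lay at -0.03 and -0.04.

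Because phagocytes and B cells carry the most oxidase, their markers were set beside Cybb. Of 21 macrophage and monocyte markers, 15 lay below 0 and 6 above, with a median of -0.12, while 59.2% of all genes lay below 0. None passed limma's test (0 of 21), where 0 of all 19494 genes did. After quantile normalization 9 of the markers lay above 0, with a median of -0.04, and with the trend removed 7, with a median of -0.05. Lyz2, a lysozyme of macrophages that was named after its value was seen, had the range 5.10 to 5.48 in the samples labelled GPR15-GFP+ and 5.65 to 5.93 in the others. The integrin Itgam lay at -0.49 and the Fc receptor chain Fcer1g at -0.50, while Ccr2 lay at 0.63 and Ly6c2 at 0.52. Ccr2, a chemokine receptor that T cells also express, and the protease gene Ctss held the highest values of the list. The summed level of the list on the linear scale was 2560 to 3660 in the samples labelled GPR15-GFP+ and 2430 to 2940 in the others. Without Ccr2 and Ctss, a choice made after their levels were seen, the ranges were 1020 to 1350 and 1160 to 1370, and no marker was above 7.23 on any array. RMA gives no value of 0 and no absent call. In numbers 1 and 5, where Cybb was 1.58 and 1.86 higher, the list's median lay at -0.04 and -0.25. The part of other cells in the Cybb difference was not tested.

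The remaining lists of other cell types also had medians below 0. Neutrophil markers had 10 of 13 below 0, with a median of -0.20 and a summed level of 821 to 1090 against 945 to 1090. Their median was -0.08 after quantile normalization and -0.10 with the trend removed, with 5 of 13 above 0 in both. Cxcr2, the neutrophil chemokine receptor, lay at -0.52 and Ltf, a granule protein, at -0.48, while Mmp9, a gelatinase, lay at 0.59. B and plasma cell markers had 7 of 10 below 0, with a median of -0.19. Their summed levels were 590 to 774 against 752 to 851. The largest differences were those of the plasma cell genes Jchain (-1.13) and Mzb1 (-0.59), while the B cell gene Cr2 lay at 0.40. Jchain lay at -1.71 and -1.60 in numbers 1 and 5 but at -0.07 in number 6. Dendritic cell markers had 10 of 12 below 0 with a median of -0.18 and summed levels of 1020 to 1420 against 1230 to 1320. The class II gene H2-Aa lay at -0.31, while the class II gene H2-Eb1, named after its value was seen, lay at 0.21. Epithelial markers had 10 of 12 below 0 with a median of -0.23 and summed levels of 981 to 1260 against 1220 to 1350, with the microvillus gene Vil1 at -0.59. Mast cell and eosinophil markers were even, 5 above and 5 below 0, with a median of -0.02 that turned sign with each of the 3 rescalings and summed levels of 1100 to 1870 against 1390 to 3920. Under quantile normalization the medians were -0.10 for B and plasma cell, -0.12 for dendritic cell and -0.14 for epithelial markers. Kit, the stem cell factor receptor, lay at -1.19, with -1.12, -1.30 and -1.16 in numbers 1, 5 and 6. Its values ran from 8.53 to 11.74, while no other mast cell or eosinophil marker exceeded 8.16 on any array. Kit thus weighed most in the summed levels of that list. Kit passed the test between title numbers, with means of 9.09, 11.08 and 11.00 in numbers 1, 5 and 6 (limma adjusted p = 0.0140, with 0.00249 to 0.949 over 17 alternative fits). In none of these lists did a member pass limma's test between the fractions, which 0 of all 19494 genes passed. T cell markers had 8 of 11 above 0, with a median of 0.14 and Thy1 at 0.46, and the T cell median was 0.02 after quantile normalization and 0.06 with the trend removed, with 6 of 11 above 0 in both. Treg markers had 5 of 10 above 0 and a median of 0.02 that turned to -0.02 under both, with the cytokine Il10 at 0.79 ± 0.41 (SE) and the transcription factor Ikzf2 at -0.52. Tigit, an inhibitory receptor of this list, passed between title numbers with means of 9.05, 10.34 and 10.20 (limma adjusted p = 0.0419, with 0.0174 to 0.910 over 17 alternative fits, of which 9 kept the call). The call was lost without the GPR15-GFP- sample numbered 5 (limma adjusted p = 0.0610) and without the GPR15-GFP+ samples numbered 1 (0.0707) or 5 (0.0868).

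**Figure D4:**
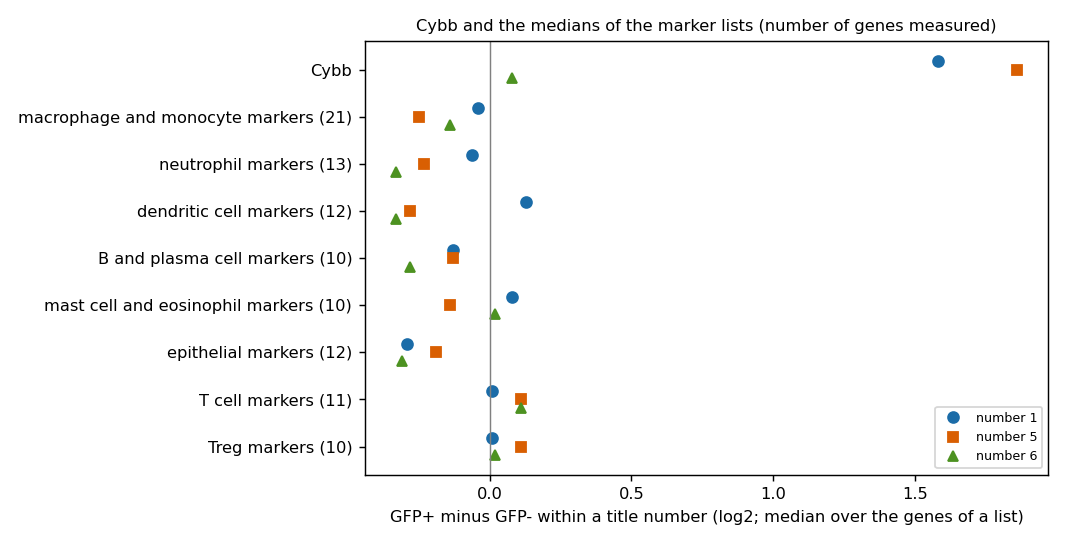
Difference between fractions (log2) of Cybb and median difference of each marker list within title numbers 1, 5 and 6, with the number of genes measured in brackets. Cybb lies at 1.58 and 1.86 in numbers 1 and 5, while each list's median stays between -0.33 and 0.13.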

How the data were processed

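The log2 values per array row were made by the authors with RMA before they were deposited, per the submitters' processing notes. Their log2 scale was read from their range, and the version of RMA is not given in the sources used here. RNA was extracted and labelled with biotin by a kit for very small amounts, per the labels' protocols. The array's annotation build and detection calls are not given in the sources used here. Of 22142 rows, 19527 had 1 gene symbol and 2615 none. For 33 genes with several rows the row of highest mean was taken, which left 19494 genes. No other expression file was used, and promoter sequences came from RefSeq's table.

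Differences are labelled GPR15-GFP+ minus labelled GPR15-GFP-. The test was limma's (version 3.58.1, R 4.3.3, lmFit and eBayes without a block). It was adjusted by Benjamini-Hochberg over all genes at 0.05, and checked on simulated data. For the test between the fractions the simulated arrays held no effect of title number. That check therefore does not show how the test behaves with the differences between numbers in these data. An exact permutation test of 3 against 3 cannot go below 0.1, 2-sided. The members and lists were chosen with earlier results of these data known. From each list the text names members that passed or up to 4 with the largest difference, all genes of the oxidase list, and the 5 genes most like Cybb, leaving out predicted genes, olfactory receptors, small RNAs and antigen receptor segments. Names outside this rule are marked, except Il2ra and Ctss. Deviations from the fraction means correlated at 0.567, 0.381 and 0.319 between samples of equal number (1, 5 and 6). Between a sample numbered 5 and one numbered 6 the values were 0.213 and 0.315. Between a sample numbered 1 and one of another number they were -0.507 to -0.383. The values at equal number meet the rule for pairs, though they set number 1 apart more than they part numbers 5 and 6. The values given are nevertheless those of the fit without a block, and the replicate block was an alternative. The alternatives were a filter on the 40% dimmest genes, 3 rescalings, array weights, the replicate block, no fraction term, mean rows, a trended prior, and leaving out each array or number.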

Additional observations from a re-analysis of the deposited data

How the results depend on the processing

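The difference of Cybb kept its sign in 15 of 15 alternatives (0.68 to 1.72), as did those of Ncf1 (-0.48 to -0.11), Ncf4 (0.15 to 0.34) and Rac2 (0.04 to 0.18), while that of Cyba did so in 9 of 15 (-0.17 to 0.22). Rac2 lay at 0.18 with arrays centred on their median, at 0.04 after quantile normalization and at 0.04 with the intensity trend removed. With 1 array left out the ranges were 0.68 to 1.61 for Cybb, -0.17 to 0.22 for Cyba, -0.45 to -0.12 for Ncf1, 0.18 to 0.32 for Ncf4 and 0.09 to 0.13 for Rac2. With the replicate block, as in all other fits but 1, limma called 0 genes between the fractions. The exception was array weights, with 2174 calls (979 higher, 1195 lower), where the estimation of weights stopped before it converged. Genes without overlap went from 2591 to 1583 with the dimmest left out, where fewer genes were tested. They numbered 9310 without the GPR15-GFP+ sample numbered 1 and 3583 to 4163 without any other single array, and 10919, 5381 and 5148 without both arrays numbered 1, 5 and 6. Fewer samples make non-overlap easier, but the larger numbers without that sample, and without both numbered 1, exceed those at equal sample number. Calls between title numbers went from 354 to 137 after quantile normalization, 100 with the trend removed, 45 with array weights, 2 with no fraction term, 1 without both arrays numbered 1, 925 without both numbered 6, and 96 to 1988 with 1 array left out; the cause was not tested. Leaving out both arrays numbered 5 or 6 was chosen after seeing the data. The number of arrays and the lack of detection calls limit what can be said of dim genes.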
